A study of Mus musculus with 4 samples.

Results

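The genes of oxidative phosphorylation were described in whole mouse uterus on gestational day 4. Members were the protein-coding rows of the deposited TPM table (a level per transcript length) whose symbol names a subunit of respiratory complexes I to IV or of ATP synthase, complex V. The symbol rule used no measured value and gave 110 genes of the 14935 protein-coding genes in the table. Of these, 13 are encoded by mitochondrial DNA and 97 by the nucleus. The table itself holds only genes with a total count of at least 51, so genes below that could not be members. Of the nuclear genes, 83 were counted as subunits: 37 of complex I, 4 of complex II, 8 of complex III, 17 of complex IV and 17 of complex V. Those of complex IV include Cox5b-ps, labelled protein coding though its symbol marks a pseudogene of Cox5b, at 6.62 to 11.1 TPM. The rule also took in 12 assembly factors (8 Ndufaf genes for complex I and 4 Sdhaf genes for complex II), the supercomplex factor Cox7a2l and Atp5if1, the inhibitor of ATP synthase. Ndufa4 and its paralog Ndufa4l2 carry complex I names and were counted with complex IV.

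The study compared 2 whole-uterus samples from wild-type controls with 2 from Prss29 Cre/Cre; Pgr f/f mice, called knockouts here, in which a Cre recombinase placed at the gland gene Prss29 removes the progesterone receptor Pgr from uterine glands. The knockout mice also differ from the controls in carrying Cre and in both copies of Prss29, so the loss of Pgr and these changes cannot be told apart. The labels give no strain, age or parity, and do not say whether replicates came from separate animals, so the p-values reflect how far these samples vary, which may be technical variation only. Gene counts of 29932153 to 35149834 per library were tested with edgeR's quasi-likelihood test, and CPM here are counts scaled to the same library size, after TMM factors. Prss29 was at 43.9 and 5.41 CPM in controls, against 0 in both knockouts, where 3 counts would be 0.0907 and 0.107 CPM. Pgr was at 141, 139, 130 and 146 CPM over the 4 libraries. That count covers muscle and stroma, which also express the receptor, and does not check the deletion in glands. Summed markers of uterine epithelium (1969 to 2516 CPM), stroma (5866 to 10786 CPM) and smooth muscle (3861 to 13333 CPM) were present in every library. In whole tissue, fewer cells of a type and less RNA per cell cannot be told apart.

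Oxidative phosphorylation is the last stage of respiration. Complexes I and II pass electrons from NADH and succinate to coenzyme Q, complex III passes them to cytochrome c, complex IV passes them to oxygen, and complex V uses the proton gradient made by complexes I, III and IV to make ATP. Mitochondrial DNA encodes the hydrophobic cores of complexes I, III, IV and V, and its genes are transcribed as long precursors that are cut at the tRNAs between them. All other subunits, and the whole of complex II, are transcribed in the nucleus, so an assembled complex draws on both genomes.

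No member passed the test between the groups. Of 110 members tested, 0 had an adjusted p under 0.05 in edgeR's quasi-likelihood test, against 0.00477% of all genes, which is 1 gene of 20950. The count of members with an unadjusted p under 0.05 was also 0, where 1.22% of all genes had one with knockouts higher and 1.79% with knockouts lower. DESeq2 and limma-voom called 0 members as well, each with 1 member, mt-Nd4l, at an unadjusted p under 0.05. The edgeR adjusted p of every member was 0.99998. The values below therefore describe 4 libraries, and the width of the intervals sets what could be seen: the median 95% interval reached 0.66 log2 units to either side of a nuclear member's fold change and 1.04 to either side of a mitochondrial one. In simulated counts with the spread of these libraries, the same test recovered 10 of 100 genes changed 2-fold and 99 of 100 changed 8-fold. Of its calls there, 9.17% were false. The changed genes were all at 5 CPM or more. Planting many of them eases the adjustment, so recovery in the real data, where 1 gene was called, can be lower.

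The 13 mitochondrial genes made up 6.74% and 10.7% of all TPM in controls 1 and 2, against 6.71% and 6.59% in knockouts 1 and 2. The 83 nuclear subunit genes together made up 1.48% and 1.33% in the controls, against 1.44% and 1.67% in the knockouts. Control 2 stood above the other 3 libraries, which lay close together: the mitochondrial sum was 67385 and 106890 TPM in the controls, against 67141 and 65898 TPM in the knockouts.

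Among the mitochondrial genes of complex I, mt-Nd1, a core subunit of its membrane arm, was at 9924 and 14391 TPM in controls and 9270 and 8310 TPM in knockouts. The membrane subunit mt-Nd2 was at 5146 and 7026 TPM in controls and 4255 and 4179 TPM in knockouts. Both knockouts lay below both controls for these genes, with control 2 the highest. Their log2 fold changes, knockout over control, were −0.41 (SE 0.39) for mt-Nd1 and −0.47 (SE 0.34) for mt-Nd2. The proton-pumping subunit mt-Nd4 was at 4139 and 7098 TPM in controls and at 4330 and 3130 TPM in knockouts, a log2 fold change of −0.55 (SE 0.40). For mt-Nd4 knockout 1 lay between the controls, so the groups overlapped. The pumping subunit mt-Nd5 was at 5471 and 7388 TPM in controls and 4301 and 5827 TPM in knockouts. mt-Nd6, the member encoded on the opposite strand, was at 4892 and 6806 TPM in controls and at 4455 and 4846 TPM in knockouts. The log2 fold changes of this pair were −0.27 (SE 0.42) and −0.26 (SE 0.32), smaller than their standard errors.

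The remaining genes of complex I, mt-Nd3 and mt-Nd4l, had far lower levels per length. mt-Nd4l was at 256 and 408 TPM in controls and 238 and 94.5 TPM in knockouts, and its groups did not overlap. Its log2 fold change of −0.98 (SE 0.42, 95% interval −1.99 to 0.031) had the smallest unadjusted p of any member, 0.0556 in edgeR's quasi-likelihood test. mt-Nd3 was at 131 and 166 TPM in controls and at 172 and 54.8 TPM in knockouts, so the knockouts held both the highest and the lowest value. Its log2 fold change was −0.38 (SE 0.47).

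In complex III, mt-Cytb, the cytochrome b that carries electrons through the complex, was at 14265 and 22386 TPM in controls and 13719 and 13133 TPM in knockouts. The controls lay farther from each other than either knockout lay from control 1. The log2 fold change was −0.39 (SE 0.44). In complex IV, the catalytic subunit mt-Co1 had the highest level of any member, at 21334 and 37503 TPM in controls and 24132 and 25590 TPM in knockouts. Both knockouts lay between the controls, and the log2 fold change was −0.18 (SE 0.52). The copper-binding subunit mt-Co2 was at 598 and 1214 TPM in controls and 730 and 224 TPM in knockouts. The third core subunit, mt-Co3, was at 674 and 1362 TPM in controls and 844 and 341 TPM in knockouts. For mt-Co2 and mt-Co3, knockout 1 lay between the controls and knockout 2 below all other libraries, with log2 fold changes of −0.92 (SE 0.53) and −0.76 (SE 0.46).

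In complex V, mt-Atp6, the subunit through which protons pass, was at 275 and 580 TPM in controls and 369 and 106 TPM in knockouts. mt-Atp8, which overlaps mt-Atp6 on the genome, was at 280 and 566 TPM in controls and 327 and 64.0 TPM in knockouts. Knockout 2 was again the lowest library and control 2 the highest, with log2 fold changes of −0.85 (SE 0.55) and −1.12 (SE 0.67).

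All 13 mitochondrial genes lay below 0, and their median was −0.47, against 48.9% of all genes tested and a median of 0.01. The genes are cut from shared precursors, so they are not 13 independent measurements. In CPM, 3 of 13 had both knockouts below both controls (mt-Nd1, mt-Nd2 and mt-Nd4l), where 13.1% of all genes did. In TPM mt-Nd6 and mt-Cytb did as well, making 5 of 13, and the share of all genes was not counted on that scale. Control 2 was the highest library for 12 of 13, the exception being mt-Nd3, where 24.8% of all genes had their highest value. Without control 2 the median was −0.17, and 12 of 13 genes stayed below 0. The median was −0.66 without control 1, −0.68 without knockout 1 and −0.42 without knockout 2.

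**Figure D1:**
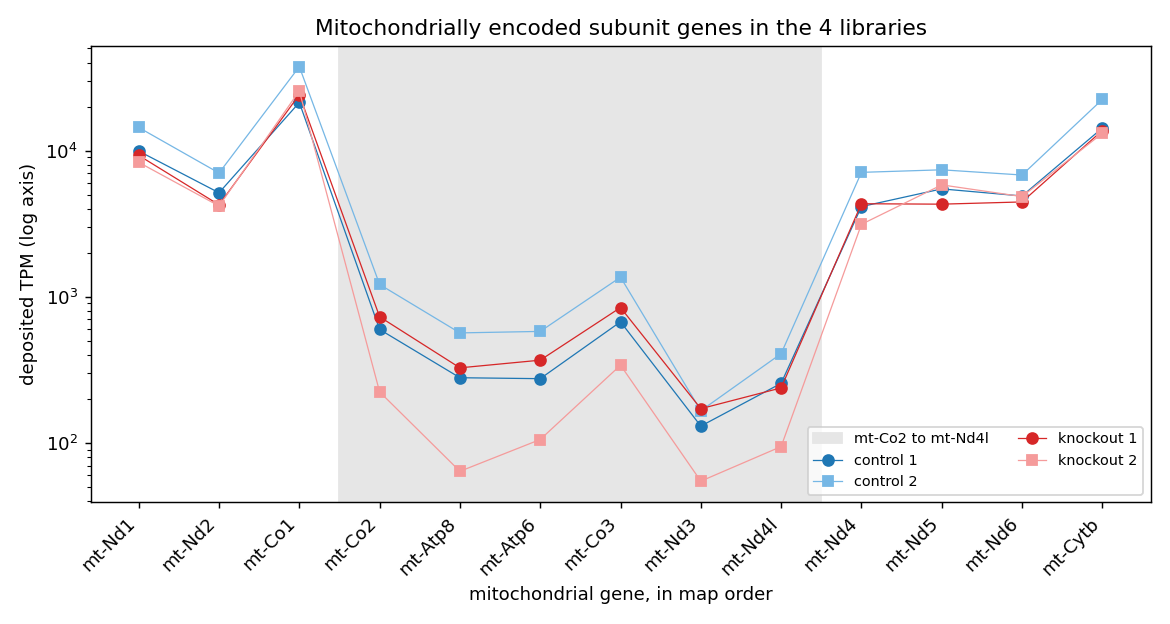
Deposited TPM, on a log axis, of the 13 mitochondrial genes in their order along the mitochondrial genome, with 1 point per gene and library and lines joining the points of a library as a guide. The 6 genes from mt-Co2 to mt-Nd4l lie far below their neighbours in every library and lowest in knockout 2, and control 2 is the highest library for 12 of 13 genes.

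The levels fell into a set of 7 genes at high levels and an unbroken run of 6, from mt-Co2 through mt-Atp8, mt-Atp6, mt-Co3 and mt-Nd3 to mt-Nd4l (bases 7013 to 10173 of chrM), at 131 to 805 TPM averaged over libraries. The run was picked out after its values were seen. Its summed level was 3.40% and 4.19% of that of the other 7 genes in the controls, against 4.16% and 1.36% in the knockouts. Knockout 2 was the lowest library for 6 of 6 genes of the run. Of the 7 genes outside it, knockout 2 was lowest for 4 in TPM and for 1 in CPM. The median log2 fold change was −0.88 in the run and −0.39 outside it. Without control 2, the median outside the run was −0.04. The tRNA gene mt-Ts1, next to mt-Co1 on the side of the run, had the same order of libraries as the run, at 226 and 462 CPM in controls, against 278 and 102 CPM in knockouts.

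The run coincides with a nuclear copy of mitochondrial DNA on mouse chromosome 1. In the GENCODE M21 annotation of build GRCm38, 7 transcripts on the minus strand between bases 24611535 and 24616197 of that chromosome match 7 mitochondrial genes, in the same order. The pair of mt-Co3 and its copy Gm28437 shows how close the match is, since all 783 aligned bases were the same in both. The opening 90 bases of each, at chrM:8607-8696 on the plus strand and at chr1:24613882-24613971 on the minus strand, are printed in lower case throughout because none differs.
mt-Co3: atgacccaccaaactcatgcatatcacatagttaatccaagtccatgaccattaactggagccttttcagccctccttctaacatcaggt
Gm28437: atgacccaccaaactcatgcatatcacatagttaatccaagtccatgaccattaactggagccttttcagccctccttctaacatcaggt
A 150-base read from within those 783 bases carries no base that tells the gene from its copy.

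The copy of mt-Co1, Gm29216, covers only bases 1054 to 1545 of the gene and shows where the nuclear copy begins. Of 492 aligned bases 6 differed, and the 6 lie at T1056A, C1057T, A1059G, A1060G, C1062A and A1066T, counted from the 5′ end of the gene with the mitochondrial base given before the position. The pair below is bases 1054 to 1143 of mt-Co1, at chrM:6381-6470 on the plus strand, and the opening bases of its copy, at chr1:24616108-24616197 on the minus strand. Capitals mark the bases that differ.
mt-Co1: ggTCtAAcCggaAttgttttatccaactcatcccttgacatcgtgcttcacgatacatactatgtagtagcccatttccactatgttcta
Gm29216: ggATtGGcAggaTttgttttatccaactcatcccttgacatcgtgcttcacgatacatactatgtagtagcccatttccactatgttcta

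The deposited counts were divided between gene and copy in nearly constant shares for 4 of the run's genes. The copy held 56.7 to 59.1% of the summed counts of mt-Co2 and Gm28661 over the 4 libraries, 70.1 to 72.4% for mt-Atp6 and Gm10925, 53.6 to 55.5% for mt-Co3 and Gm28437, and 58.0 to 60.8% for mt-Nd4l and Gm10222. For mt-Nd3 and Gm28438, which differ at 1 of 345 bases (T3C), the copy's share ran from 34.4 to 70.2%. Outside the run, the copy held 0.18 to 0.58% for mt-Co1 and 1.76 to 3.29% for mt-Nd4, whose copies span 492 of 1545 and 876 of 1378 bases. Transcripts of other genes held 99.4% of the 150-base windows of mt-Co2 and of mt-Atp6, 99.8% of those of mt-Co3, 98.0% of mt-Nd4l and 97.0% of mt-Nd3. The share was 59.2% for mt-Nd4, 23.6% for mt-Co1 and 0% for mt-Nd2 and mt-Nd5. It was also 0% for mt-Atp8, a gene of the run with no annotated copy transcript. The search covered annotated transcripts and not the genome between them. Both mt-Atp8 and mt-Ts1 lie between genes that have a copy on chromosome 1. Their reads may therefore match that chromosome too, which was not tested. How the authors' counting treated reads that match both places is not given in the sources used here, so the levels of the run and of its copies are uncertain, and reads of the gene and of the copy cannot be told apart.

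The order of libraries was the same in gene and copy for mt-Co2, mt-Atp6, mt-Co3 and mt-Nd4, and differed for mt-Co1, mt-Nd3 and mt-Nd4l. Gm28437 was at 194 and 398 CPM in controls, against 232 and 116 CPM in knockouts, beside 165 and 333 CPM in controls, against 200 and 93.2 CPM in knockouts for mt-Co3 itself. Over the 5 genes of the run with an annotated copy, gene and copy together summed to 938 and 1916 CPM in controls, against 1126 and 465 CPM in knockouts. Knockout 1 lay between the controls and knockout 2 below both, which the nearly constant shares of most pairs fix in advance. With counts of the 7 genes summed with their copies, a setting chosen after the data were seen, the median over the 13 genes was −0.56 and 0 members were called.

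**Figure D2:**
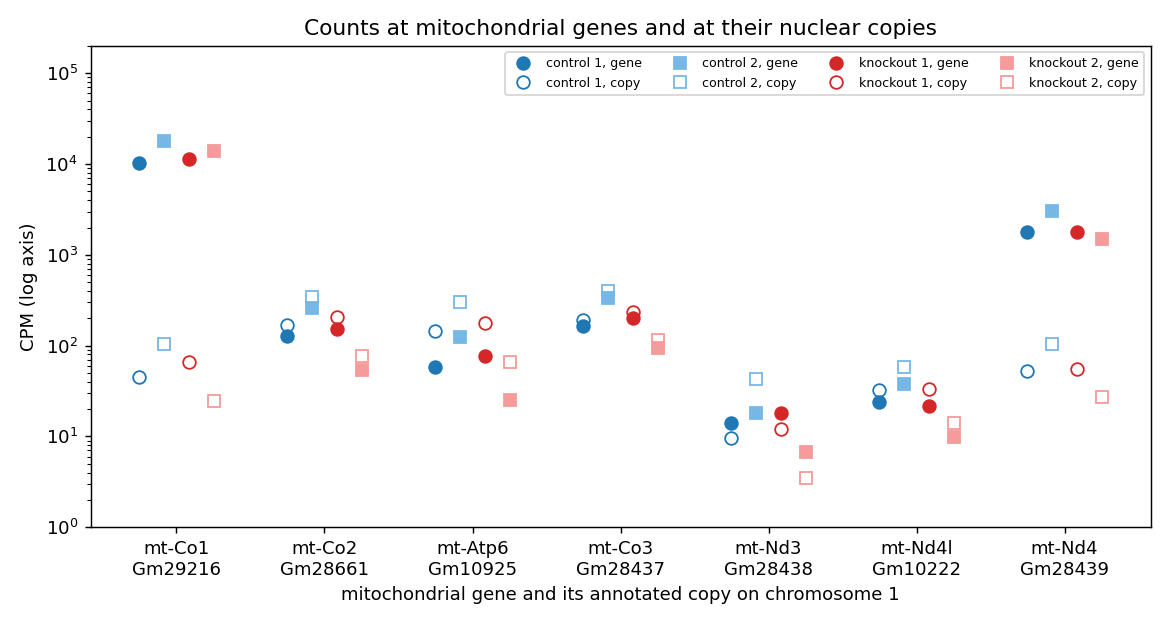
CPM, on a log axis, of 7 mitochondrial genes (filled symbols) and of their annotated copies on chromosome 1 (open symbols), with 1 symbol per library. For the genes of the run the copy lies near the gene, as with mt-Co3 at 165 and Gm28437 at 194 CPM in control 1, whereas the copies of mt-Co1 and mt-Nd4 lie far below, and knockout 2 is lowest throughout except for mt-Co1 itself.

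Nuclear members had lower levels per length than the mitochondrial genes outside the run, and a wide range among themselves. Mean TPM over libraries ran from 7.95 (Ndufb2) to 472 (Ndufc2) in complex I, with a median of 114. The range was 88.5 (Sdhc) to 243 TPM (Sdhd) in complex II, 94.1 (Uqcrc1) to 361 TPM (Uqcrh) in complex III, 4.08 (Cox8b) to 806 TPM (Cox4i1) in complex IV and 46.8 (Atp5mg) to 623 TPM (Atp5f1a) in complex V. The medians of complexes II to V lay close together, at 152, 206, 177 and 153 TPM. Assembly factors, which act while a complex is built and are not part of it, were lower, with medians of 21.5 TPM for the 8 of complex I and 21.0 TPM for the 4 of complex II. All 110 members passed the filter on low counts, which the cut of the TPM table at a total count of 51 nearly fixed in advance. The lowest count of any member in any library was 10.

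**Figure D3:**
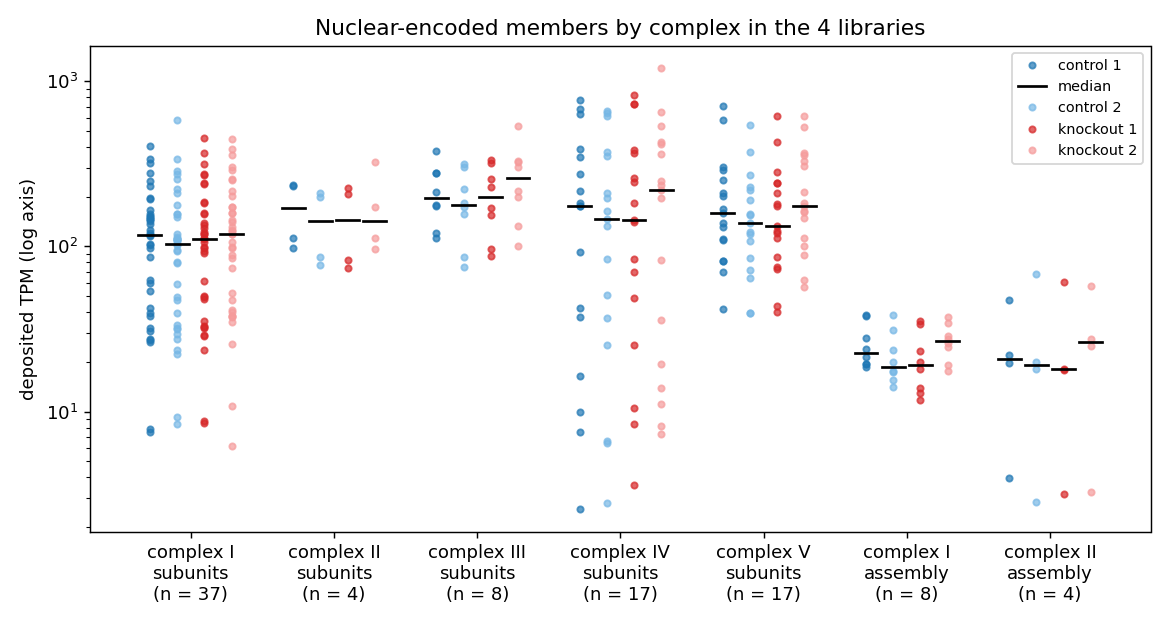
Deposited TPM, on a log axis, of nuclear subunit genes by complex and of assembly factors, with 1 point per gene and library and a bar at each library's median. Medians of complex I lie between 103 and 120 TPM in the 4 libraries, and those of the complex I assembly factors between 18.7 and 26.8 TPM.

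Promoters of the nuclear members were read from RefSeq for build GRCm38.p6, which held 84 entries for 79 of the 97 members. The 250 bases before the start were searched on both strands for short forms of sites that are textbook features of respiratory gene promoters. GCGCATGC, the core bound by nuclear respiratory factor NRF1, was in 9 of 84 entries, or 10.7%, against 2.26% of all 32851 entries. CTTCCGG, the core of ETS family sites, to which the respiratory factor GABP belongs, was in 16 entries, or 19.05%, against 6.91% of all. AAGATGGC, a YY1 core, was in 1.19% against 1.56%, and TATAAA was in 7.14% against 12.4%. A match is a description of the letters and not a binding site. The NRF1 core occurred in Atp5mc2, Atp5me, Atp5mg, Cox6a1, Ndufa11, Ndufa6, Ndufa8, Ndufaf4 and Sdhb.

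The 3 promoters shown carry these letters in members described below, with the matches in capitals and each sequence ending at the base before the start. Cox6a1, one of the most abundant nuclear subunits of complex IV, holds both cores, the NRF1 core as a palindrome that matches on both strands (chr5:115348959-115349208, minus strand).
Cox6a1: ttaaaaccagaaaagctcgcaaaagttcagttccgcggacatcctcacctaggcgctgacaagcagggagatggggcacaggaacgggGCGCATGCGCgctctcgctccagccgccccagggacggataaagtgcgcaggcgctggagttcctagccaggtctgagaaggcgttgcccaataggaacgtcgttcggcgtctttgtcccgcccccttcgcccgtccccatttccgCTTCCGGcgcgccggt
Uqcrh, the most abundant nuclear subunit of complex III, holds the ETS core close to the start (chr4:116075071-116075320, minus strand).
Uqcrh: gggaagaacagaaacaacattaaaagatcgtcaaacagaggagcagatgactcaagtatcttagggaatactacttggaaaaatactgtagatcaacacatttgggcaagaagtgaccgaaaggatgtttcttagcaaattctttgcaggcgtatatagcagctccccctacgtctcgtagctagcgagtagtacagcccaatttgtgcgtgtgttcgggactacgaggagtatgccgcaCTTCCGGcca
Atp5f1e, the nuclear member with the smallest unadjusted p, holds the ETS core farther upstream (chr2:174464102-174464351, minus strand).
Atp5f1e: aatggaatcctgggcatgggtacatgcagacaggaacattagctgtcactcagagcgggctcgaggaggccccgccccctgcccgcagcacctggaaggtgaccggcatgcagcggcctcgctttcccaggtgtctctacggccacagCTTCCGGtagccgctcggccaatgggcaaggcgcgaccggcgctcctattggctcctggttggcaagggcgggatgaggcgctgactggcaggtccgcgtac

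The nuclear members leaned the other way from the mitochondrial genes, by a small amount that rested on knockout 2. Of 97 members, 81 had a log2 fold change above 0, where 51.1% of all genes did, and the median was 0.21. On the log2(TPM + 1) scale 73 were above 0, with a median of 0.11 against −0.047 over all genes. With library totals alone 75 were above 0, with a median of 0.16 against −0.030 over all genes. In CPM both knockouts lay above both controls for 20 of 97, against 12.2% of all genes, and below both for 2, the assembly factors Ndufaf3 and Ndufaf8, against 13.1% of all genes. Knockout 2 was the highest library for 70 of 97 in CPM, against 29.9% of all genes, and for 56 of 97 in TPM. Knockout 1 lay between the controls for 44, above both for 26 and below both for 27. Without knockout 2, 43 of 97 members were above 0 and the median was −0.02. Without knockout 1 the median was 0.38, and 22 nuclear members had an unadjusted p under 0.05 in edgeR, where 8.24% of all genes did in that setting. The smallest adjusted p among those 22 was 0.272.

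**Figure D4:**
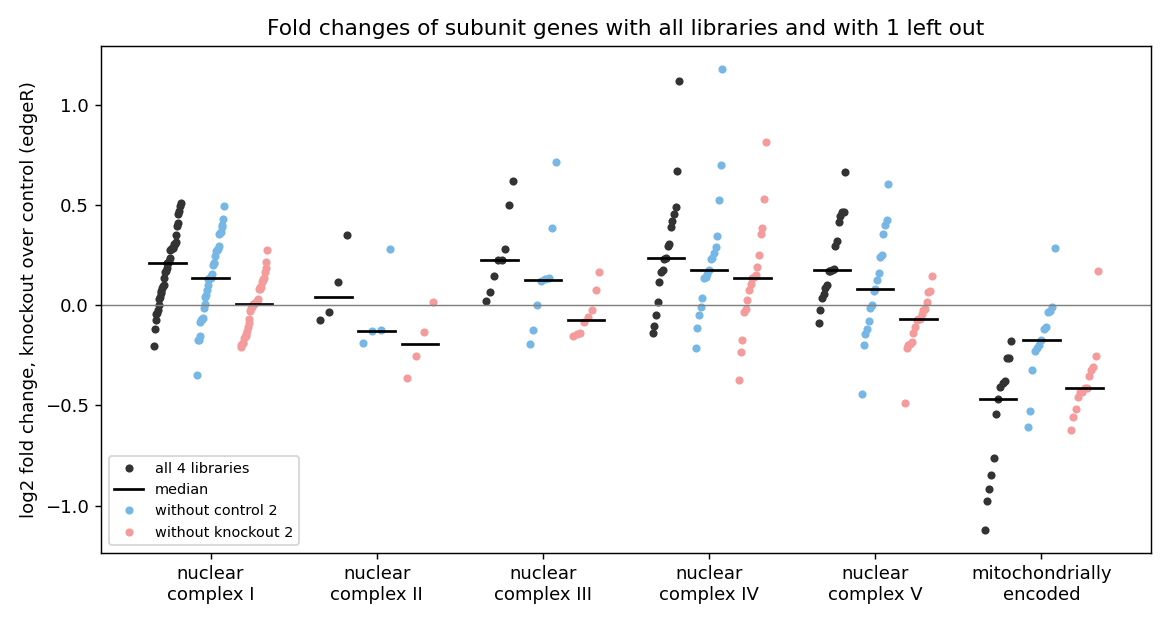
Log2 fold change, knockout over control, of each nuclear subunit gene by complex and of the 13 mitochondrial genes, from edgeR with all 4 libraries, without control 2 and without knockout 2, with bars at the medians. With all libraries the 83 nuclear subunits have a median of 0.21 and the mitochondrial genes one of −0.47; the first is −0.02 without knockout 2 and the second −0.17 without control 2.

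In complex I, 31 of 37 nuclear subunits were above 0, with a median of 0.21. In CPM 10 of 37 had both knockouts above both controls, against 12.2% of all genes. The most abundant, the small membrane subunit Ndufc2, was at 408 and 581 TPM in controls and 454 and 446 TPM in knockouts, with both knockouts between the controls. Ndufb11, an accessory subunit of the membrane arm, was at 340 and 337 TPM in controls and 368 and 386 TPM in knockouts. The accessory subunit Ndufb9 was at 26.3 and 23.7 TPM in controls and 29.3 and 38.1 TPM in knockouts, a log2 fold change of 0.51 (SE 0.33). Ndufa7, an accessory subunit of the peripheral arm, was at 104 and 108 TPM in controls and 118 and 159 TPM in knockouts, a log2 fold change of 0.47 (SE 0.26). In Ndufb11, Ndufb9 and Ndufa7 the groups did not overlap. In each of these genes knockout 2 stood farther from knockout 1 than the controls stood from each other. The other 7 non-overlapping subunits, Ndufa2, Ndufa13, Ndufb3, Ndufb5, Ndufb7, Ndufb10 and Ndufv3, had knockout levels of 28.8 to 275 TPM. Per length, Ndufa13 and Ndufv3 did not keep that separation, Ndufv3 being at 38.1 and 39.5 TPM in controls and 48.2 and 37.1 TPM in knockouts.

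Complex II, succinate dehydrogenase, had no mitochondrial gene and the smallest median, 0.04, with 2 of 4 subunits above 0. The median was −0.0083 with library totals alone and −0.04 on the log2(TPM + 1) scale. Sdhd, a membrane anchor, was at 231 and 211 TPM in controls and 207 and 324 TPM in knockouts, a log2 fold change of 0.35 (SE 0.31). Its knockouts held the lowest and the highest of the 4 values. Sdha, the flavoprotein that oxidises succinate, was at 234 and 200 TPM in controls and 226 and 173 TPM in knockouts, a log2 fold change of −0.07 (SE 0.24). The summed level of the complex was 676 and 574 TPM in controls and 589 and 706 TPM in knockouts, so the groups overlapped.

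In complex III, 8 of 8 nuclear subunits were above 0, with a median of 0.23. Uqcrh, the hinge protein that helps cytochrome c dock, was at 276 and 314 TPM in controls and 321 and 533 TPM in knockouts, a log2 fold change of 0.62 (SE 0.33). Per length knockout 1 lay just above control 2, and in CPM the groups overlapped. The small subunit Uqcr10 was at 215 and 183 TPM in controls and 229 and 303 TPM in knockouts, a log2 fold change of 0.50 (SE 0.27), and was the complex III member whose groups did not overlap in CPM. Uqcrb, the second most abundant, was at 376 and 304 TPM in controls and 335 and 327 TPM in knockouts, with both knockouts between the controls.

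In complex IV, cytochrome c oxidase, 14 of 17 nuclear subunits were above 0, with a median of 0.24. In CPM 6 of 17 had both knockouts above both controls, against 12.2% of all genes. Cox4i1, the common form of the subunit that binds regulatory nucleotides, was at 630 and 661 TPM in controls and 731 and 1200 TPM in knockouts. Its log2 fold change was 0.67 (SE 0.35, 95% interval −0.17 to 1.51). Cox6a1, the second most abundant, was at 765 and 638 TPM in controls and 822 and 647 TPM in knockouts, with overlapping groups. Cox7c, a small membrane subunit, was at 350 and 350 TPM in controls and 367 and 419 TPM in knockouts, a log2 fold change of 0.24 (SE 0.23). Ndufa4, found in complex IV despite its name, was at 275 and 195 TPM in controls and 260 and 364 TPM in knockouts, a log2 fold change of 0.49 (SE 0.31). Cox7a2l, which joins complexes III and IV into supercomplexes, was at 382 and 559 TPM in controls and 542 and 748 TPM in knockouts, a log2 fold change of 0.53 (SE 0.33). The groups overlapped for Ndufa4 and Cox7a2l, and knockout 2 was the highest library for both.

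In complex V, ATP synthase, 15 of 17 nuclear subunits were above 0, with a median of 0.18. In CPM 2 of 17 had both knockouts above both controls, against 12.2% of all genes. Atp5f1e, the smallest subunit of the central stalk, was at 168 and 155 TPM in controls and 175 and 306 TPM in knockouts. Its log2 fold change of 0.66 (SE 0.34, 95% interval −0.15 to 1.48) had the smallest unadjusted p of a nuclear member, 0.0958 in edgeR's quasi-likelihood test. Atp5mg, a membrane subunit at the dimer contact, was at 41.6 and 39.5 TPM in controls and 43.7 and 62.3 TPM in knockouts, a log2 fold change of 0.47 (SE 0.28). For both, knockout 1 lay just above the controls and knockout 2 far above. Of the 150-base windows of the Atp5mg transcript, 44.6% also occur in transcripts of other genes, so its count is uncertain. The main subunits of the catalytic head, alpha (Atp5f1a) and beta (Atp5f1b), did not share this order. Atp5f1a was at 711 and 546 TPM in controls and 615 and 619 TPM in knockouts. Atp5f1b was at 578 and 372 TPM in controls and 429 and 531 TPM in knockouts. Their log2 fold changes were 0.04 (SE 0.29) and 0.09 (SE 0.35), the former −0.0026 with library totals alone. Atp5if1, which stops the enzyme from running in reverse, was at 239 and 207 TPM in controls and 260 and 255 TPM in knockouts, above both controls.

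Of the 12 assembly factors, 9 were above 0, with a median of 0.11. None had both knockouts above both controls in CPM, against 12.2% of all genes. Ndufaf8 was at 38.1 and 38.2 TPM in controls and 35.6 and 28.8 TPM in knockouts, and Ndufaf3 at 21.5 and 23.8 TPM in controls and 20.04 and 17.6 TPM in knockouts. Per length knockout 2 was the lowest library for both, and in CPM knockout 1 was the lowest for Ndufaf3. They are the only nuclear members with both knockouts below both controls in CPM.

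Other gene lists also differed between the libraries, several of them high in knockout 2. The 85 cytosolic ribosomal protein genes summed to 55011 and 50620 CPM in controls, against 54637 and 85688 CPM in knockouts, and 75 of them were highest in knockout 2. Of 78 mitochondrial ribosomal protein genes, 63 were above 0, with a median of 0.16, and 58 were highest in knockout 2. Protein-coding genes in the CPM range of the nuclear members had a median of 0.01, and 31.5% were highest in knockout 2. Summed smooth muscle markers (14 genes, led by Acta2 and Myh11) were at 10385 and 3861 CPM in controls, against 8886 and 13333 CPM in knockouts. Of these, 13 were highest in knockout 2 and all 14 were lowest in control 2. Skeletal muscle markers (9 genes) summed to 123 and 35.7 CPM in controls, against 88.4 and 159 CPM in knockouts. Luminal epithelium markers (7 genes) summed to 626 and 1358 CPM in controls, against 1131 and 1178 CPM in knockouts. Of 8 endothelium markers, 6 were lowest in knockout 2. Heart muscle markers (5 genes) summed to 21.3 and 13.9 CPM in controls, against 21.6 and 75.4 CPM in knockouts. Of their 2 most abundant genes, Tnnt2 was at 16.4 and 4.16 CPM in controls, against 15.1 and 18.9 CPM in knockouts, and Myh6 was at 0.345 and 0.313 CPM in controls, against 0.181 and 36.2 CPM in knockouts. Fat markers (7 genes) summed to 10.2 and 12.3 CPM in controls, against 12.2 and 48.3 CPM in knockouts, with Plin4 at 5.24 to 11.6 CPM and Cfd at 0.144 and 2.42 CPM in controls, against 0.0302 and 18.1 CPM in knockouts. The 5 red blood cell markers were all highest in knockout 2. Of 9 immune cell markers, 9 were below 0, with a median of −0.61, 6 were highest in control 2 and 4 reached an unadjusted p under 0.05 by edgeR. Of 11 gland epithelium markers, 8 were below 0 and 3 above. In edgeR, which called 0 of them, 6 were lower and 1 higher with an unadjusted p under 0.05. The shares of all genes were 1.79% and 1.22%. DESeq2 called 6 of the 11, and 90 genes in all. Heart muscle and brown fat are rich in mitochondria, and the part of these cells and of the ribosomal protein genes in the values of the members was not tested.

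Some complex IV subunits have a common form and a form restricted to heart and skeletal muscle, testis or other settings, and these pairs were read as levels per length. Cox4i2, the form known from lung and from low oxygen, was at 16.4 and 25.2 TPM in controls and 25.4 and 13.9 TPM in knockouts. Cox4i1 was therefore 38.5 and 26.3 times Cox4i2 in controls and 28.8 and 86.6 times in knockouts. Knockout 2 was the highest library for Cox4i1, well above the others, and the lowest for Cox4i2, where it lay near control 1. The common Ndufa4 was 7.39 and 5.28 times the hypoxia-linked Ndufa4l2 in controls, and 5.34 and 18.9 times in knockouts. Ndufa4l2 itself was at 37.2 and 37.0 TPM in controls and 48.7 and 19.3 TPM in knockouts.

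The heart and skeletal muscle form Cox7a1 was at 7.58 and 6.49 TPM in controls and 10.5 and 8.20 TPM in knockouts, a log2 fold change of 0.46 (SE 0.48). Cox8b, the other muscle form present, was at 2.56 and 2.79 TPM in controls and 3.61 and 7.37 TPM in knockouts, from counts of 10, 11, 13 and 26. Its log2 fold change of 1.12 (SE 0.70) was the highest of the named members and rests on those few reads. The groups of these muscle forms did not overlap. Cox7a1 was highest in knockout 1 and Cox8b in knockout 2. The common Cox8a was 264 and 221 times Cox8b in controls, and 202 and 72.8 times in knockouts. Cox7a2 was 24.0 and 22.6 times Cox7a1 in controls, and 13.8 and 28.7 times in knockouts. Cox6b2, known from testis, was at 42.3 and 50.8 TPM in controls and 84.2 and 35.8 TPM in knockouts, beside 373 to 430 TPM for the common Cox6b1. Knockout 1 was the highest library for Cox6b2 and knockout 2 the lowest, and the log2 fold change was 0.39 (SE 0.38). The 3 genes for the ring of ATP synthase that turns with the proton flow were read together: Atp5mc1 was at 39.6 to 69.7 TPM, Atp5mc2 at 165 to 243 TPM and Atp5mc3 at 228 to 328 TPM, and the groups overlapped for each.

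**Figure D5:**
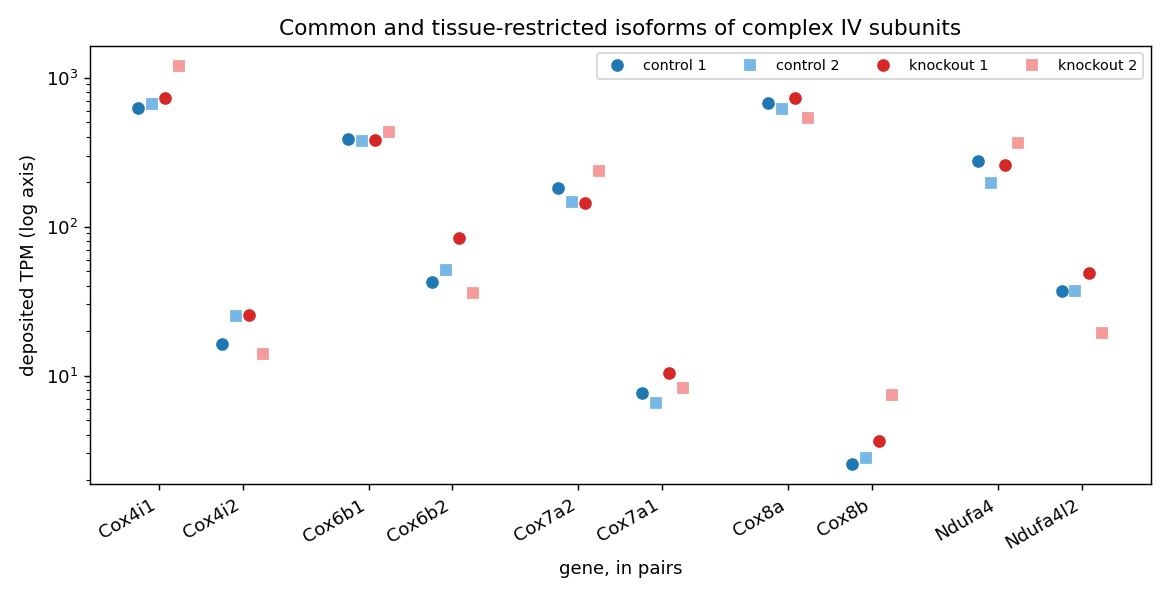
Deposited TPM, on a log axis, of common and restricted forms of complex IV subunits, side by side in pairs, with 1 point per library. The common form is the higher of each pair in every library, and knockout 2 is highest for Cox4i1 (1200 TPM) and lowest for Cox4i2 (13.9 TPM).

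Set against each other, the summed TPM of the 13 mitochondrial genes was 4.55 and 8.06 times that of the 83 nuclear subunit genes in controls, and 4.65 and 3.95 times in knockouts. The means were 6.30 ± 2.48 in controls and 4.30 ± 0.49 in knockouts (SD, n = 2 each). Knockout 1 lay between the controls, and the gap between the controls exceeded that between the group means. The libraries at the ends of this order differed in both sums: control 2 had the highest mitochondrial and the lowest nuclear sum (13268 TPM), and knockout 2 the lowest mitochondrial and the highest nuclear sum (16686 TPM). In CPM the mitochondrial sum was 26133 and 41780 in controls and 25413 and 29635 in knockouts, so knockout 2 was not the lowest library on that scale. By complex, the nuclear sum was 4738 and 4556 TPM in controls and 4763 and 5197 TPM in knockouts for complex I, 1733 and 1516 against 1649 and 2133 TPM for complex III, 4039 and 3700 against 4254 and 4674 TPM for complex IV, and 3637 and 2922 against 3187 and 3976 TPM for complex V. The groups did not overlap for complexes I and IV and overlapped for III and V. In CPM they overlapped for complex I too, at 2087 and 1948 in controls and 1995 and 2522 in knockouts.

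In the lists for mitochondrial DNA, mitochondrial RNA, nuclear regulators, assembly, carriers and fuel pathways that follow, 0 genes were called by edgeR, DESeq2 or limma-voom, and 0 had an unadjusted p under 0.05 with any of these tools. Of 16 genes for transcription and replication of mitochondrial DNA, 10 were above 0, with a median of 0.04. The one with the smallest p, Tefm, an elongation factor for the mitochondrial polymerase, was at 10.05 and 8.98 CPM in controls, against 8.34 and 18.5 CPM in knockouts, a log2 fold change of 0.50 (SE 0.42). Of 19 genes for processing and stability of mitochondrial RNA, 16 were above 0, with a median of 0.11. Hsd17b10, part of the enzyme that cuts the 5′ ends of mitochondrial tRNAs, was at 69.1 and 60.0 CPM in controls, against 74.0 and 117 CPM in knockouts, a log2 fold change of 0.56 (SE 0.27). Of 14 nuclear regulators of mitochondrial genes, 6 were above 0, with a median of −0.01. The coactivator Ppargc1a was at 3.91 and 5.07 CPM in controls, against 4.08 and 2.39 CPM in knockouts, a log2 fold change of −0.47 (SE 0.43). Knockout 2 was the highest library for Tefm and Hsd17b10 and the lowest for Ppargc1a.

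Pathways that feed or build the chain were read in the same way. Of 49 assembly factors outside the symbol rule, 34 were above 0, with a median of 0.13. Fmc1, which helps assemble ATP synthase, was at 12.5 and 8.66 CPM in controls, against 11.9 and 20.9 CPM in knockouts, a log2 fold change of 0.63 (SE 0.37). Of 14 genes for mobile carriers and coenzyme Q synthesis, 11 were above 0, with a median of 0.11, and Coq6, a hydroxylase of that synthesis, had a log2 fold change of 0.36 (SE 0.28). The 19 genes of the tricarboxylic acid cycle had a median of 0.04 and the 18 of glycolysis one of −0.01. The 18 genes of fatty acid beta-oxidation had a median of 0.15, with both knockouts above both controls for 7, against 12.2% of all genes. Among them Acadm, the medium-chain acyl-CoA dehydrogenase, was at 55.7 and 56.5 CPM in controls, against 72.1 and 72.0 CPM in knockouts, a log2 fold change of 0.36 (SE 0.20) in which the libraries of a group lay close together.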

How the data were processed

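Total RNA of 4 whole-uterus samples was sequenced as paired 150-base reads, per the labels. Trimmomatic, STAR, featureCounts and build GRCm39 are named in the submitters' processing notes. Not given in the sources used here: their versions, the strand setting and how reads that match several places were counted. The authors deposited raw counts for 57186 genes and TPM for the 19991 genes with a total count of at least 51. The deposited TPM were recomputed here from count and length to within rounding.

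Counts were tested with edgeR 4.0.16 in R 4.3.3: filterByExpr defaults left 20950 genes, libraries were scaled by TMM, and the quasi-likelihood test was adjusted by Benjamini-Hochberg over all of them, at a threshold of 0.05. DESeq2 1.42.0 and limma 3.58.1 (voom, and log2(TPM + 1)) were alternatives. With 2 residual degrees of freedom, the common biological coefficient of variation came to 0.309. The test was run on simulated counts of 20443 genes. No 2 libraries had counts within sampling noise of each other. Depth makes 3 counts worth 0.0855 to 0.107 CPM.

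The members and the other gene lists were chosen with earlier results of these data known. Named were all mitochondrial members and, in each complex, the 2 nuclear subunits of highest mean TPM and, among those of at least 5 CPM with groups that did not overlap, the 2 highest and 2 lowest by fold change. Also named were the isoform lists, the smallest p of each pathway list and the 2 most abundant genes of marker lists. Atp5if1, Ndufaf3, Ndufaf8, the other members named for groups that did not overlap, the printed promoters, the mitochondrial run and the chromosome 1 copies were added after their values were seen. Mitochondrial and copy sequences came from GENCODE M21 transcripts (GRCm38) and promoters from RefSeq (GRCm38.p6).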

Additional observations from a re-analysis of the deposited data

How the results depend on the processing

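With 2 libraries a group, the precision is set by the spread between libraries and not by depth, and reads shared between mitochondrial genes and chromosome 1 copies, or between subunit genes and their processed copies, limit the levels themselves. Members called numbered 0 under each alternative setting, DESeq2 and limma-voom included. The count over all genes, 1 with edgeR, was 90 with DESeq2, 0 with limma-voom, 54 with no low-count filter, 0 with a mean of at least 1 CPM, 3 with limma on log2(TPM + 1), and 16 to 49 with 1 library left out. The labels give matching replicate numbers but do not say that they pair the samples, and with 2 pairs this could not be settled: the deviations of same-numbered libraries had r = −0.44 over 20950 genes. The replicate block gave 32 calls over all genes, with medians of −0.50 for the mitochondrial genes and 0.19 for the nuclear subunits. Blocks with crossed numbers, chosen after the data were seen, gave 37 calls over all genes and 0 among members.

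The mitochondrial median ran from −0.68 to −0.17 (without control 2) with 1 library left out, and was −0.39 over the 7 genes outside the run. The nuclear subunit median ran from −0.016 (without knockout 2) to 0.38. The mean ratio of mitochondrial to nuclear sums was 6.30 in controls and 4.30 in knockouts in TPM. In CPM it was 4.71 in controls and 3.29 in knockouts. In TPM without mt-Co1 it was 4.17 in controls and 2.70 in knockouts. The median of complex II was −0.0083 with library totals alone, −0.038 on log2(TPM + 1) and −0.19 to 0.32 with 1 library left out. That of complex III ran from −0.072 to 0.52 and that of complex V from −0.071 to 0.47, the low ends being without knockout 2. Of the single genes, Atp5f1a was at −0.0026 with library totals alone, −0.015 on log2(TPM + 1) and −0.15 to 0.25 with 1 library left out. With 1 library left out, the fold changes also crossed 0 for Atp5f1b (−0.20 to 0.46), Cox6b2 (−0.21 to 0.81), mt-Co1 (−0.51 to 0.28), mt-Nd3 (−1.27 to 0.17), mt-Nd5 (−0.62 to 0.022), Sdha (−0.19 to 0.061), Sdhd (−0.14 to 0.71) and Tefm (−0.19 to 0.96). The causes were not tested. Where an arm was left with 1 library, edgeR takes it to vary like the other group. For the 37 genes whose fold change is given, 503 values under these settings kept their direction and their side of the threshold and 14 changed direction. Members with no fold change given were not counted there: of the 97 nuclear members, 43 were above 0 without knockout 2, against 81.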

Other observations

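The ribosomal RNA genes of mitochondrial DNA had another order of libraries than the subunit genes. The ribosomal RNA gene mt-Rnr2 was at 414 and 945 CPM in controls, against 534 and 1050 CPM in knockouts, and mt-Rnr1 at 150 and 365 CPM in controls, against 235 and 405 CPM in knockouts. Knockout 2 was the highest library for both, whereas it was the lowest for the genes from mt-Co2 to mt-Nd4l. Among the 10 mitochondrial rRNA and tRNA genes tested, 7 had a log2 fold change below 0, and control 2 was the highest library for 5.

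Forms of the subunits that are restricted to muscle or testis and are not in the TPM table had few counts. Cox6a2, the heart and skeletal muscle form of Cox6a1, had 12 and 10 counts in controls and 2 and 18 in knockouts, Cox7b2 had 0 in every library, and Cox8c had 1 in all. Of 96 nuclear members with a transcript in GENCODE M21, 20 had 150-base windows that also occur in transcripts of other genes, and 10 had more than 10% of their windows shared. The highest shares were 67.7% for Sdhaf1, 44.6% for Atp5mg, 29.3% for Ndufb4 and 21.2% for Ndufb6.

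In further lists, the gene with the smallest p was Slc25a23, an ATP and phosphate carrier, at 39.8 and 37.1 CPM in controls, against 53.9 and 52.0 CPM in knockouts. Among stress response genes of mitochondria it was Mthfd2, an enzyme of mitochondrial folate metabolism, at 41.3 and 46.2 CPM in controls, against 27.1 and 18.8 CPM in knockouts. Its unadjusted p was 0.00966 and its adjusted p 0.99998 in edgeR's quasi-likelihood test. Pcx, which makes oxaloacetate from pyruvate, was at 289 and 347 CPM in controls, against 256 and 185 CPM in knockouts. Bnip3, a hypoxia target of the mitochondrial outer membrane, was at 21.6 and 26.2 CPM in controls, against 30.3 and 40.5 CPM in knockouts. The glycolytic enzyme Eno2 was at 21.0 and 19.6 CPM in controls, against 25.3 and 29.4 CPM in knockouts. Both knockouts lay on the same side of both controls for each of these 5 genes, and none was called. Picking the smallest p of a list favours such genes. Of all genes, 12.2% had both knockouts above both controls and 13.1% had both below.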
